A study of Mus musculus with 9 samples.

Results

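Polysome-bound mRNA of mouse oocytes was compared between metaphase I (MI) and metaphase II (MII), the interval in which the oocyte finishes its first division. Of the 9 Affymetrix arrays of the series, the 6 titled as MI or MII entered the contrast, with 3 per stage, and the 3 arrays of germinal vesicle (GV) oocytes served to estimate the spread. All mice received PMSG, a gonadotropin that makes follicles grow, and after 48 h human chorionic gonadotropin (hCG), which triggers maturation. MI oocytes were collected 4 h and MII oocytes 14 h after hCG, and the GV oocytes at 0 h. The labels give no strain, genotype or age, and do not say how many animals or oocytes went into a sample. The stage comes from the titles and stage fields, while the descriptions of the MI samples read pGVB, a term that is not explained. Every gene with a probe set annotated to a single symbol was included, 18193 in all, each represented by its brightest probe set.

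During these hours the anaphase-promoting complex, a ubiquitin ligase, marks cyclin B and securin for destruction, separase then cuts the cohesin that holds homologous chromosomes together, and the spindle sits under the cortex so that the division gives a small polar body and a large egg. Cdk1 activity drops briefly and returns, and the Mos-MAPK pathway with Emi2 (Fbxo43) holds the egg in metaphase II until a sperm arrives. The genome is silent throughout, so that which stored mRNAs are loaded on ribosomes or released from them, together with mRNA decay, sets which proteins are made. A signal on polysomes depends on both the amount of an mRNA and its loading, and these cannot be told apart here.

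Array medians lay between 12.4 and 13.2 intensity units in all 9 arrays and 53.1% to 54.8% of probe sets lay below 16, so the array carries signal for the brighter part of the genes. The 95th percentile was 1458, 1446 and 1163 on the MI arrays and 1221, 1162 and 1126 on the MII arrays. The oocyte markers were present: none of 13 lay below 16 on an MI array and 1 did on an MII array, Figla on MII 1. Of 17 granulosa, cumulus and theca markers, 5 to 10 lay below 16 on an array, and their summed intensity was 1069 to 1377 in MI and 751 to 1084 in MII, against 66755 to 74251 and 40023 to 46325 for the oocyte markers. The called member of the first list, Tnfaip6, a cumulus matrix gene, read 2.44, 4.86 and 4.0 on the GV arrays, 75.9, 77.4 and 45.8 on the MI arrays and 3.08, 23.7 and 2.19 on the MII arrays (log2 change -1.76, SE 0.34, adjusted p = 0.0176). It was lost without any one of MI 1, MI 2, MII 1 and MII 3 (adjusted p between 0.0543 and 0.0648). The 11 blood, immune, endothelial and stroma markers summed to 179.7, 281.5 and 680.2 in MI and 657.9, 788.0 and 991.5 in MII. Whether these cells' RNA has a part in the results was not tested. The control probe sets were brightest on MI 3, with a geometric mean of 187 against 101 to 170 on the other 8 arrays. With 3 arrays per stage the precision is limited. The titles call the 3 samples of a stage biological replicates, but do not state that they came from separate animals. The p-values therefore measure only how these samples vary, and how much of that is variation between animals is not known.

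Between MI and MII, many more of the bright genes lost signal than gained it. By limma's test, 1695 genes (9.32% of 18193) were called. Of these, 1233 (6.78% of all genes) fell and 462 (2.54%) rose, at a Benjamini-Hochberg adjusted p under 0.05. The fall was at least 4-fold for 882 genes and at least 16-fold for 100, while 183 genes rose at least 4-fold and 4 at least 16-fold, all on the log2(intensity + 16) scale. The median log2 change was -2.49 among genes that fell, 1.83 among those that rose and -0.017 over all genes. At an unadjusted p under 0.05 by limma, 1532 of all 18193 genes were higher in MII and 2368 lower. Shares at like signal given below count adjusted calls only. The calls leaned on each array: 546 of the falls and 110 of the rises were called in all 9 fits that left out 1 array. In all 1233 falls and all 462 rises the 3 MI arrays lay apart from the 3 MII arrays, so non-overlap adds nothing to a call. Over all genes, called or not, every MII array lay below every MI array in 15.3% and above in 11.7%. The balance of both directions depended on scaling. Rises made up 27.3% of calls as deposited and 31.7% after cyclic loess. They made up 41.3% when arrays shared a 95th percentile and 42.2% when quantile normalized.

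The direction followed how bright a gene was in MI. Genes were ranked by their mean MI signal into 20 bins, which serve only to match genes of like signal, since intensities of different probe sets do not measure relative amounts of mRNA. In the 10 dimmest bins, 84 of 9097 genes rose and 9 fell. In the 10 brightest bins, 378 of 9096 rose and 1224 fell. Among the 909 genes of the top bin, 27 (2.97%) rose and 368 (40.5%) fell, and the median log2 change was -0.91. This share was 24.3% without MI 2 and 26.7% without MI 1. Genes near background have little room to fall, and the MI arrays enter both the bins and the change. With bins made from the GV arrays instead, which take no part in the contrast, the top bin had 42.7% of genes falling, 1.87% rising and a median of -1.09. The share that fell in the top MI bin was 37.3% when quantile normalized, 37.5% when arrays shared a 95th percentile and 40.8% after cyclic loess. The share that rose was 7.59%, 6.38% and 6.05% in the same order. Each gene or list is therefore also given relative to genes of like MI signal, as its log2 change minus the median change of its bin.

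**Figure D1:**
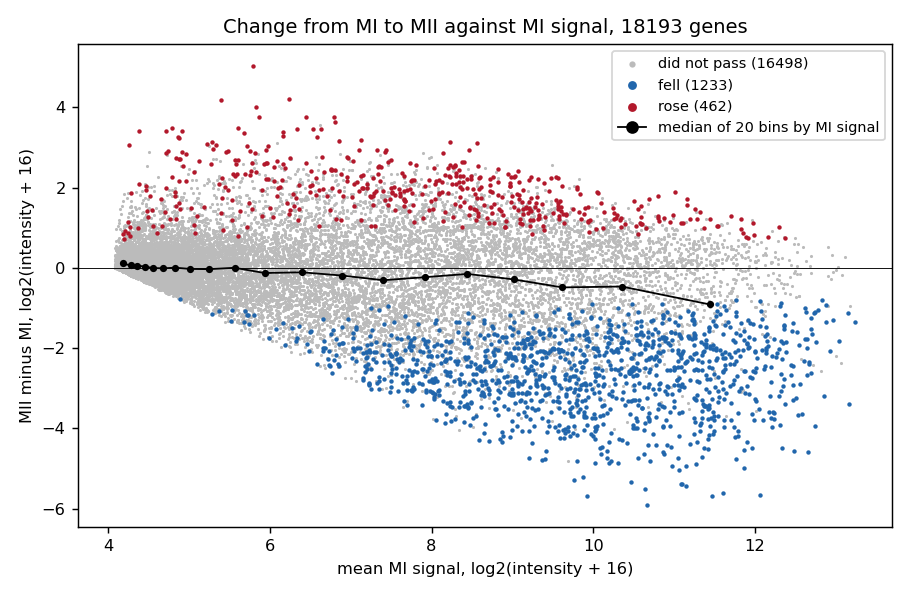
Log2 change from MI to MII (y axis) against mean MI signal (x axis), both on the log2(intensity + 16) scale, for 18193 genes; blue points fell, red points rose and grey points did not pass. The black line of bin medians declines to -0.91 in the brightest bin, and the lower edge of the cloud is the limit that a low MI signal sets on a fall.

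**Figure D2:**
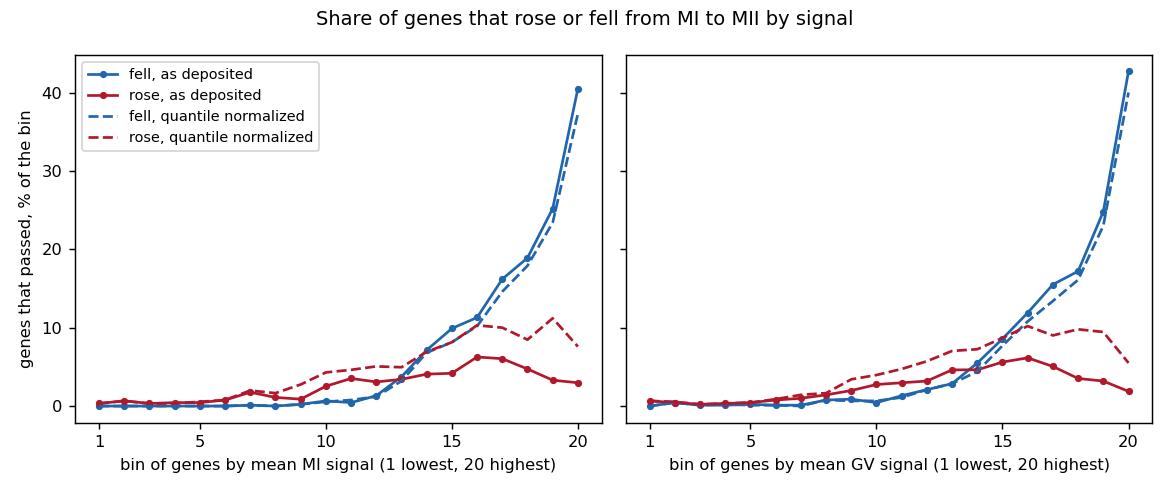
Percentage of genes in each of 20 signal bins that fell (blue) or rose (red), with bins by MI signal on the left and by GV signal on the right; solid lines are values as deposited and dashed lines after quantile normalization. The share that fell climbs to 40.5% in the top MI bin and 42.7% in the top GV bin, and quantile normalization raises the share that rose to 7.59% in the top MI bin.

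Few bright mRNAs disappeared from the polysome fraction altogether. Of 1953 genes with an MI mean of 1000 or more, 612 fell and 59 rose. Of those 612, 33 had all MII arrays under 100 and 1 had all under 16. In the other direction, 68 genes rose from under 100 on every MI array to at least 100 on every MII array, and 195 of the 462 that rose reached at least 1000 on all MII arrays. Of 4989 genes that lay under 16 on all MI arrays, 24 rose. The GV arrays resembled MI for these genes: the median intensity of the genes that fell was 1047 in GV, 989 in MI and 139.7 in MII, and that of the genes that rose was 194 in GV, 232 in MI and 991 in MII. For 1179 of the 1233 falls and 444 of the 462 rises, every GV array lay on the MI side of every MII array.

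The kinases and phosphatase switches that drive M phase moved in different directions. Of the list of Cdk1, cyclins and M-phase switches, 6 of 23 members fell and 1 rose (median log2 change -0.20, 0.17 relative to genes of like MI signal), beside 21.5% falling among all genes of like signal. The list median was 0.0019 when arrays shared a 95th percentile. Cdk1, the kinase of M phase, read 6534, 5497 and 2136 on the MI arrays and 98.03, 25.97 and 107 on the MII arrays. All MII arrays lay far below the MI arrays and below the GV arrays (5606, 2826 and 3687), and the fall was among the 12 largest relative to genes of like signal (log2 change -5.67, SE 0.56, adjusted p = 0.00174; -4.76 relative to like signal). Cdc25b, the phosphatase that activates Cdk1 when the oocyte resumes meiosis, read 1731, 1764 and 1731 on the MI arrays and 124, 73.98 and 28.04 on the MII arrays (log2 change -4.42, SE 0.40, adjusted p = 0.00138). Both calls held in every fit without 1 array. Ccnb2, which encodes a cyclin B partner of Cdk1, read 2648, 1427 and 929 on the MI arrays and 922, 1375 and 967 on the MII arrays, so the stages overlapped and the gene did not pass (log2 change -0.50, adjusted p = 0.558; 95% interval -1.40 to 0.40). Wee2, the oocyte kinase that inhibits Cdk1, read 2098, 1940.0 and 1405 on the MI arrays and 2371, 2569 and 2497 on the MII arrays, with MII above MI on every array but no call (log2 change 0.47, adjusted p = 0.39; 95% interval -0.15 to 1.09).

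Members of the Greatwall module, which restrains the phosphatase PP2A-B55 during M phase, were split. Ensa, one of the small PP2A inhibitors that Greatwall phosphorylates, read 759.8, 653 and 536 on the MI arrays and 6.10, 11.2 and 7.08 on the MII arrays. It went from clear signal to near background (log2 change -4.78, SE 0.23, adjusted p = 0.00026). The second probe set of Ensa had a change of -3.78. Arpp19, the other inhibitor, had 2222 ± 599 on the MI arrays and 386 ± 122 on the MII arrays (mean and SD, n = 3; log2 change -2.48, SE 0.30, adjusted p = 0.00318), while its other probe sets were at -1.40 and 1.71, and the average of its probe sets was not called (adjusted p = 0.271). Mastl, the Greatwall kinase itself, read 694, 829 and 625 on the MI arrays and 1833, 1858 and 1893 on the MII arrays, a rise on every array (log2 change 1.37, SE 0.23, adjusted p = 0.0105). Its dimmer probe sets were at -0.47 and 0.31. The call was lost when probe sets were averaged (adjusted p = 0.35) and with a pseudocount of 1 (adjusted p = 0.0826). The remaining calls of this list were falls of Cdc25a, another Cdc25 phosphatase, and of Cdkn1b, the cyclin-dependent kinase inhibitor p27. Cdc25a had a log2 change of -2.01 and another probe set at 1.05, and lost its call without MII 3 (adjusted p = 0.0502). Cdkn1b, at -1.14 on both probe sets, was not called without any one of GV 1, MI 1, MI 2, MI 3, MII 1, MII 2 and MII 3 (adjusted p between 0.0527 and 0.097).

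**Figure D3:**
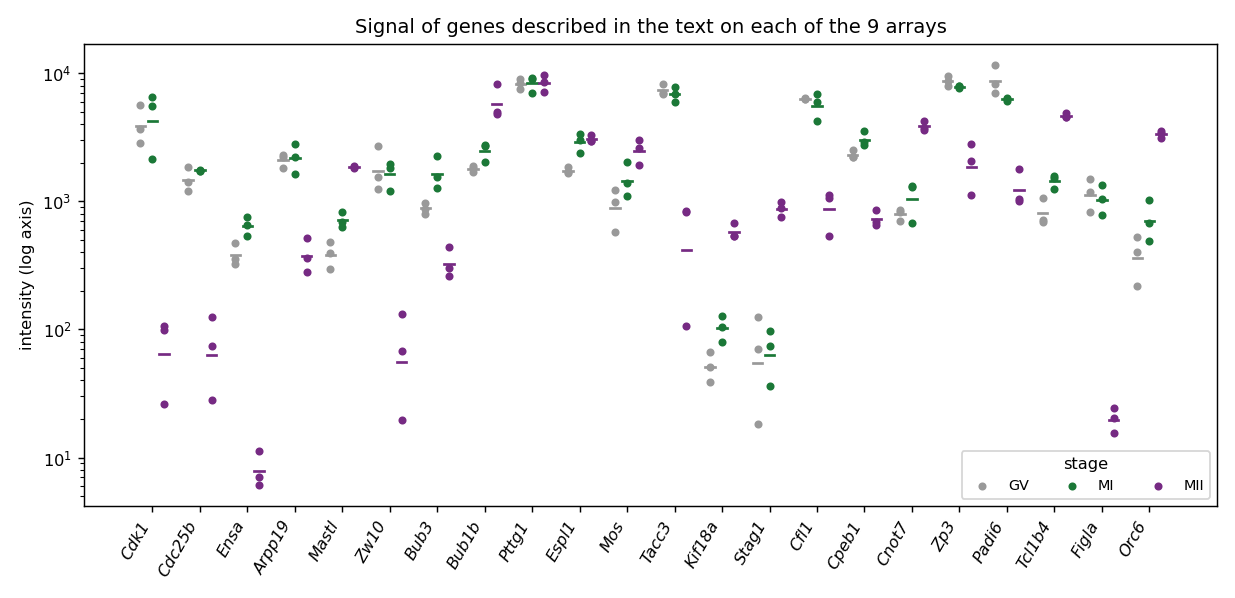
Intensity (log axis) of genes described in the text on each of the 9 arrays, with GV in grey, MI in green and MII in purple; points are arrays and bars the geometric mean of 3. The MII points of Cdk1, Cdc25b, Ensa, Zw10 and Figla lie far below those of the other stages, those of Stag1, Kif18a, Cnot7, Tcl1b4 and Orc6 lie above, and those of Pttg1 and Espl1 overlap with MI; the genes were picked after their values were seen.

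Some genes of the ligase that ends metaphase and of the checkpoint that inhibits it fell. Of the anaphase-promoting complex and its regulators, 5 of 21 members fell and 1 rose (median log2 change -1.40, -0.75 relative to genes of like MI signal). Of genes of like signal, 23.03% fell and 3.99% rose. Anapc16, a small core subunit, read 1255, 1072 and 819 on the MI arrays and 209, 385 and 177 on the MII arrays (log2 change -2.02, SE 0.35, adjusted p = 0.0116). Further probe sets of this gene were at -1.65, -0.996 and -0.996. Anapc7, a scaffold subunit, read 701, 786 and 456 on the MI arrays and 23.3, 122 and 34.5 on the MII arrays (log2 change -3.32, SE 0.47, adjusted p = 0.00583), but its other probe set was at 1.74, so the probe sets disagree and the mean over them was not called (adjusted p = 0.478). The calls of Anapc5 (-1.84) and of the E2 enzymes Ube2s (-1.47) and Ube2c (-1.66), which fell, were each lost in several fits without 1 array. So was that of the small subunit Cdc26 (1.55), which rose. Anapc5 was lost without any one of MI 1, MI 2, MII 2 and MII 3 (adjusted p between 0.0528 and 0.0663). Ube2s was lost without any one of MI 1, MI 2, MII 2 and MII 3 (adjusted p between 0.0536 and 0.0697). Ube2c was lost without any one of MI 2, MI 3, MII 1, MII 2 and MII 3 (adjusted p between 0.0568 and 0.0912). Cdc26 was lost without any one of GV 3, MI 1, MI 2, MII 1, MII 2 and MII 3 (adjusted p between 0.0653 and 0.133). Of the activators, Cdc20, which opens the ligase to its anaphase substrates, read 1819.8, 1372 and 1726 on the MI arrays and 4116, 5279 and 5412 on the MII arrays. Every MII array was above every MI array, but the GV arrays scattered widely (3739, 899 and 6793) and the gene did not pass (log2 change 1.58, adjusted p = 0.196; 95% interval 0.11 to 3.05). Fzr1, the activator Cdh1 that guards prophase arrest, read 227, 506 and 407 on the MI arrays and 58.6, 217 and 70.7 on the MII arrays and did not pass either (log2 change -1.72, adjusted p = 0.0945; 95% interval -2.95 to -0.48).

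Of the spindle checkpoint list, 2 of 12 members fell and 1 rose (median log2 change -0.77, -0.52 relative to genes of like MI signal). With 20.96% falling and 4.06% rising among genes of like signal, the list's share of falls (16.7%) was not above theirs. Zw10, which recruits dynein and checkpoint proteins to kinetochores, read 1966, 1807 and 1196 on the MI arrays and 131, 19.6 and 68.05 on the MII arrays (log2 change -4.43, SE 0.53, adjusted p = 0.00315). Bub3, the partner that docks Bub1 and BubR1, read 1541, 1273 and 2263 on the MI arrays and 438, 303 and 259 on the MII arrays (log2 change -2.28, SE 0.29, adjusted p = 0.0038), with its other probe set at -1.64; the mean of its probe sets was not called (adjusted p = 0.0536). The calls of Zw10 and Bub3 held in every fit without 1 array. Bub1b, which encodes the checkpoint kinase BubR1, moved the other way, with 2698, 2028 and 2755 on the MI arrays and 4934, 4801 and 8167 on the MII arrays (log2 change 1.22, SE 0.26, adjusted p = 0.0257; other probe sets 1.60 and 0.98). It was not called without any one of MI 1, MI 2 and MII 3 (adjusted p between 0.0597 and 0.0888). Thus the mRNAs of Bub3 and Bub1b, whose proteins bind each other, had opposite changes on the same arrays, although no test of the difference between genes was made.

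Kinetochore genes fell in about the same share as genes of like signal. Of the kinetochore and centromere list, 5 of 29 members fell and 0 rose (median log2 change -0.26, -0.02 relative to genes of like MI signal), and 17.7% fell among genes of like signal (17.2% of the list). Spc24, a subunit of the Ndc80 complex that holds microtubules, read 2459.9, 3202 and 3838 on the MI arrays and 218, 21.9 and 12.97 on the MII arrays (log2 change -5.62, SE 0.79, adjusted p = 0.00562), with the MII arrays far apart from each other but all below MI. Mis18a, which helps to load centromeric histone, fell by 2.60 (SE 0.40, adjusted p = 0.00776) and Cenpk, of the inner kinetochore, fell by 1.84 (SE 0.26, adjusted p = 0.00583). These calls held in every fit without 1 array. Cenpw and Cenpt, partners in a histone-fold complex of the centromere, fell by 2.92 and 3.06. Cenpw was lost without either of MI 1 and MI 2 (adjusted p between 0.0709 and 0.0804). Cenpt was lost without any one of GV 1, MI 1, MI 2, MI 3, MII 1, MII 2 and MII 3 (adjusted p between 0.0578 and 0.113).

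Genes of chromosome cohesion had rises and no fall. Of the list of cohesin, separase and shugoshin, 0 of 21 members fell and 3 rose (median log2 change 0.16, 0.99 relative to genes of like MI signal). Among genes of like signal, 14.2% fell and 3.87% rose. No member was lower even at an unadjusted p under 0.05, and 5 were higher at that level by limma. At that level, 1532 of all 18193 genes were higher and 2368 lower. Stag1, a subunit of the cohesin ring, read 96.3, 35.8 and 74.3 on the MI arrays and 888, 758 and 984 on the MII arrays. All MII arrays were far above the highest MI and GV arrays (log2 change 3.46, SE 0.52, adjusted p = 0.0069). Further probe sets of Stag1 were at 2.27, 1.84, 3.68 and 1.34. Esco1, which acetylates cohesin to lock it on DNA, read 522, 417 and 583 on the MI arrays and 1355, 1609 and 1443 on the MII arrays (log2 change 1.52, SE 0.24, adjusted p = 0.00826; other probe set 1.85), a call not made with a pseudocount of 1 (adjusted p = 0.0604). Hdac8, which removes that acetyl mark, read 66.4, 77.3 and 56.6 on the MI arrays and 256, 225 and 165 on the MII arrays (log2 change 1.47, SE 0.22, adjusted p = 0.00741). All 3 calls held in every fit without 1 array. The genes of securin and of separase were bright in both stages. Pttg1, which encodes securin, the inhibitor of separase, read 8920.0, 9216 and 7029 on the MI arrays and 7115, 8584 and 9644 on the MII arrays, almost the same in both stages (log2 change 0.0092, adjusted p = 0.989; 95% interval -0.48 to 0.50). Espl1, separase, read 3006, 3353 and 2382 on the MI arrays and 3272, 2979.6 and 2947 on the MII arrays (log2 change 0.09, adjusted p = 0.881; 95% interval -0.37 to 0.55). Genes as bright as these 2 had a median of -0.91, so that both lay 0.92 and 1.000 above their bin. The probe set of Rec8, the meiotic cohesin kleisin, lay near background in both stages (8.34, 9.14 and 10.4 on the MI arrays and 8.08, 11.7 and 17.99 on the MII arrays), so no change could be measured with it.

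Spindle genes fell in some groups and not in others. Of the spindle assembly and passenger complex list, 12 of 49 members fell and 2 rose (median log2 change -0.08, 0.27 relative to genes of like MI signal). Genes of like signal had 21.4% falling and 3.65% rising. Tubb5, a major beta-tubulin, read 2243, 2021 and 1849 on the MI arrays and 125, 172 and 218 on the MII arrays (log2 change -3.48, SE 0.27, adjusted p = 0.00121), although its other probe set was at -0.81. Tacc3, which bundles spindle microtubules and organises the liquid-like spindle domain of oocytes, read 7777, 6896 and 5929.9 on the MI arrays and 834, 825 and 107 on the MII arrays (log2 change -3.94, SE 0.68, adjusted p = 0.012), with its other probe sets at -3.73 and -2.94. Birc5, which encodes survivin of the chromosomal passenger complex, read 6937, 6724 and 5849 on the MI arrays and 1515, 1849 and 733 on the MII arrays (log2 change -2.34, SE 0.33, adjusted p = 0.00599). For each of these 3 genes, every MII array lay below every GV and MI array. Haus1, Haus3 and Haus8, subunits of augmin, the complex that branches new microtubules from existing ones, fell by 3.63, 1.91 and 3.59 (adjusted p = 0.00818, 0.00372 and 0.00885).

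Kif18a, the kinesin that shortens kinetochore microtubules and aligns chromosomes, rose, with 105, 79.8 and 127 on the MI arrays and 539, 531 and 678 on the MII arrays (log2 change 2.33, SE 0.25, adjusted p = 0.0023). No other of the 41 kinesins was called, beside 8.67% falling and 3.14% rising among genes of like signal. The calls of Tubb5, Tacc3, Birc5, Haus1, Haus3, Haus8 and Kif18a held in every fit without 1 array. Aurkc, the meiotic Aurora kinase of the passenger complex, read 5388, 3898 and 4354 on the MI arrays and 6000.0, 4756 and 6106 on the MII arrays and did not pass (log2 change 0.31, adjusted p = 0.633; 95% interval -0.34 to 0.96), so the passenger complex had a subunit that fell and a kinase without a call. Tpx2, the spindle assembly factor that activates Aurora A, read 2111, 1774 and 2026 on the MI arrays and 2031, 1929 and 2565 on the MII arrays and did not pass (log2 change 0.13, adjusted p = 0.813; 95% interval -0.36 to 0.62). Relative to their bin these 2 lay at 1.22 and 1.05.

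Several abundant actin genes fell, while the list of genes that shape the cortex and the polar body had a median above its bins. Of the list of polar body extrusion, cytokinesis and cortical actin, 9 of 47 members fell and 4 rose (median log2 change 0.20, 0.50 relative to genes of like MI signal). Of genes of like signal, 21.5% fell and 3.70% rose. Cfl1, cofilin, which cuts actin filaments, read 5959, 6855 and 4219 on the MI arrays and 1125, 1063 and 536 on the MII arrays (log2 change -2.67, SE 0.32, adjusted p = 0.00325; other probe set -2.02). Actg1, cytoplasmic gamma-actin, read 3775, 2834 and 2726 on the MI arrays and 345, 549 and 376 on the MII arrays (log2 change -2.84, SE 0.25, adjusted p = 0.00133). Pfn1, profilin, which feeds actin monomers to growing filaments, read 3566, 5463 and 4687 on the MI arrays and 1039, 1238 and 968 on the MII arrays (log2 change -2.05, SE 0.26, adjusted p = 0.00385). Pfn2 fell by 5.03 (adjusted p = 0.00564; other probe sets -1.37 and -1.47). The calls of these 4 genes held in every fit without 1 array. The nucleator that moves the spindle to the cortex was not called: Fmn2, formin 2, read 3365, 2278 and 3429 on the MI arrays and 4649.5, 4149 and 3808 on the MII arrays (log2 change 0.49, adjusted p = 0.267; 95% interval -0.03 to 1.02; other probe set 1.36). Ect2, the RhoA activator of the cleavage furrow, read 1072, 1099.7 and 468 on the MI arrays and 1543, 1237 and 1498 on the MII arrays and did not pass (log2 change 0.78, adjusted p = 0.305; 95% interval -0.11 to 1.67). The 4 rises of the list were Wasl (1.36), a relative of the WASP nucleation promoters, Cep55 (1.49), an abscission protein, and the polarity proteins Pard6b (1.47) and Prkci (3.77). None of the 4 held in every fit without 1 array. Wasl was lost without any one of MI 2, MI 3, MII 1 and MII 2 (adjusted p between 0.0502 and 0.0698). Cep55 was lost without any one of GV 3, MI 1, MI 3, MII 1, MII 2 and MII 3 (adjusted p between 0.0532 and 0.0955). Pard6b was lost without any one of the 9 arrays (adjusted p between 0.0525 and 0.148). Prkci was lost without any one of GV 1, GV 2, GV 3, MI 2, MI 3, MII 1, MII 2 and MII 3 (adjusted p between 0.0521 and 0.149).

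The genes of the second arrest were not called. Of 16 members of the Mos-MAPK and cytostatic arrest list, limma called none, with 5 lower and 1 higher at an unadjusted p under 0.05 (median log2 change -0.09, 0.004 relative to genes of like MI signal). Genes of like signal had 15.95% falling and 3.29% rising by adjusted p. At the unadjusted level, 1532 of all 18193 genes were higher and 2368 lower. Mos, the kinase that activates MAPK, read 1385, 2017 and 1095 on the MI arrays and 2596, 3032 and 1933 on the MII arrays, with overlap at the edges (log2 change 0.76, adjusted p = 0.269; 95% interval -0.06 to 1.59; 1.23 relative to like signal). Fbxo43, Emi2, the inhibitor of the anaphase-promoting complex in the arrested egg, read 90.6, 8.53 and 15 on the MI arrays and 89.1, 2.19 and 41.2 on the MII arrays, too dim and too scattered to show a change (95% interval -1.53 to 1.82). Of 26 genes of the PI3K-mTOR pathway, the growth-signal route to translation, limma also called none, but 5 were higher and 0 lower at an unadjusted p under 0.05 and the median log2 change was 0.51 (0.96 relative to like signal). Here genes of like signal had 13.9% falling and 3.61% rising. Their median intensity was 357, 503 and 254 on the MI arrays and 583, 478 and 551 on the MII arrays. Of the 15 genes of the cAMP route that keeps the GV oocyte arrested, 1 fell and 2 rose, beside 12.3% falling and 3.39% rising at like signal. Gnas, the stimulatory G protein, fell (2665 ± 441 on the MI arrays and 698 ± 95.8 on the MII arrays, mean and SD, n = 3; log2 change -1.90, SE 0.22, adjusted p = 0.00286), a call not made with the mean of all probe sets (adjusted p = 0.0971). The cyclase Adcy9 (1.20) and the kinase subunit Prkaca (1.79) rose. Adcy9 was not called without any one of MI 1, MII 2 and MII 3 (adjusted p between 0.0577 and 0.0683). Prkaca was not called without any one of MI 2, MII 1, MII 2 and MII 3 (adjusted p between 0.0659 and 0.0817).

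Among the genes that govern stored mRNAs, named members of the polyadenylation machinery fell, and members of the deadenylation machinery went both ways. Of the translational control and mRNA storage list, 8 of 37 members fell and 1 rose (median log2 change -0.32, 0.07 relative to genes of like MI signal). The share that fell (21.6%) was near that of genes of like signal (19.9% falling and 4.01% rising). Cpeb1, which binds the cytoplasmic polyadenylation element and releases masked mRNAs, read 3527, 2893 and 2734 on the MI arrays and 856, 687 and 653 on the MII arrays (log2 change -2.04, SE 0.20, adjusted p = 0.00182). Pabpc1l, the poly(A)-binding protein of oocytes, read 2403, 3660.2 and 2438 on the MI arrays and 446, 613 and 219.8 on the MII arrays (log2 change -2.77, SE 0.37, adjusted p = 0.00497). Cpsf3 and Sympk, of the cleavage and polyadenylation machinery, fell by 2.62 and 2.68 (adjusted p = 0.0098 and 0.00413). All 4 calls held in every fit without 1 array. The member that rose was Ddx6, a helicase of storage granules (2.96), whose other probe sets were at 0.35 and 0.14 and whose call was lost without either of MI 1 and MII 3 (adjusted p between 0.051 and 0.0536).

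Of the deadenylation and mRNA decay list, 4 of 41 members fell and 4 rose (median log2 change 0.25, 0.60 relative to genes of like MI signal). Genes of like signal had 20.3% falling and 3.8% rising. Cnot7, a catalytic subunit of the CCR4-NOT deadenylase, read 1324, 1297 and 674 on the MI arrays and 4238, 3716 and 3610.3 on the MII arrays (log2 change 1.86, SE 0.29, adjusted p = 0.00776; other probe sets 1.96 and 1.44). Pan2, the catalytic subunit of the other major deadenylase, read 695, 417 and 958 on the MI arrays and 2388, 2768 and 3681 on the MII arrays (log2 change 2.12, SE 0.37, adjusted p = 0.0126). Both were higher on every MII array than on any GV or MI array. Cnot10, an accessory subunit of the same CCR4-NOT complex, went the other way, with 308, 439 and 569.6 on the MI arrays and 28.6, 31.9 and 10.3 on the MII arrays (log2 change -3.53, SE 0.33, adjusted p = 0.00154; other probe sets -2.002 and -1.62). Exosc8, of the exosome that degrades RNA from its end, fell by 3.30 (adjusted p = 0.0152). These 4 calls held in every fit without 1 array. Dcp1a, an activator of decapping (1.72; other probe sets 2.81 and 1.76), was lost without MII 3 (adjusted p = 0.0534). Btg4, the adaptor that brings CCR4-NOT to maternal mRNAs (1.02), was lost without any one of GV 2, MI 1, MI 2, MI 3, MII 1, MII 2 and MII 3 (adjusted p between 0.0617 and 0.101).

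Some genes of the egg coat and the maternal complexes fell, and a few rose. Of the zona pellucida and oocyte growth factor list, 5 of 13 members fell and 1 rose (median log2 change -0.51, 0.22 relative to genes of like MI signal). Of genes of like signal, 31.5% fell and 3.16% rose. Zp3, the zona protein, read 7919.8, 7884 and 7635 on the MI arrays and 2045, 2783 and 1118 on the MII arrays (log2 change -2.07, SE 0.32, adjusted p = 0.00796). Zp1 and Zp2 fell by 1.46 and 1.91, and Oosp2, an oocyte-secreted protein, by 2.01; all 3 were lost without MI 2 (adjusted p = 0.0513, 0.0547 and 0.0513). Oosp3, another oocyte-secreted protein, rose, with 3977, 4335 and 3784 on the MI arrays and 8084, 8641 and 9448 on the MII arrays (log2 change 1.11, SE 0.19, adjusted p = 0.0118), a call not made with a pseudocount of 1 (adjusted p = 0.139).

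Of the 24 genes of the subcortical complex and maternal-effect list, 6 fell and 3 rose (12.5%), while 35.8% fell and 3.26% rose among genes of like signal. The median change relative to genes of like MI signal was 0.68. The median log2 change of the list was -0.20 as deposited, 0.038 when quantile normalized and 0.0033 when arrays shared a 95th percentile. Khdc3, Ooep, Tle6 and Padi6 belong to the complex under the oocyte cortex that early embryos need. Padi6 read 6396, 6299 and 6034 on the MI arrays and 1042, 1773 and 1011 on the MII arrays (log2 change -2.33, SE 0.29, adjusted p = 0.00359). Khdc3 read 4844, 1779 and 2683 on the MI arrays and 125, 256 and 94.6 on the MII arrays (log2 change -4.15, SE 0.43, adjusted p = 0.00209). Tle6 fell by 2.67 (adjusted p = 0.00519). Ooep had 9706 ± 504 on the MI arrays and 3785 ± 512 on the MII arrays (mean and SD, n = 3; log2 change -1.36, SE 0.19, adjusted p = 0.00519), -0.45 relative to genes of like signal, and was not called with a pseudocount of 1 (adjusted p = 0.0729). The genes that rose were all of the Tcl1b family, which is active in oocytes and early embryos. Tcl1b4 read 1254, 1509 and 1579.7 on the MI arrays and 4539, 4879 and 4521 on the MII arrays (log2 change 1.68, SE 0.23, adjusted p = 0.00513). Tcl1b3 (1.46) and Tcl1b1 (0.98) are near copies that a probe set may not separate. Tcl1b3 was lost without any one of MI 1, MI 2, MII 2 and MII 3 (adjusted p between 0.0651 and 0.0784). Tcl1b1 was lost without any one of GV 3, MI 1, MI 2, MI 3, MII 1, MII 2 and MII 3 (adjusted p between 0.059 and 0.113).

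Of the fertilisation and egg activation list, 8 of 27 members fell and 0 rose (median log2 change -0.71, -0.26 relative to genes of like MI signal). Genes of like signal had 16.04% falling and 3.45% rising. Cd9, a membrane protein that fusion with sperm requires, read 1158, 463 and 1328 on the MI arrays and 53.4, 81.3 and 59.9 on the MII arrays (log2 change -3.51, SE 0.63, adjusted p = 0.0143). Izumo1r, the receptor Juno for sperm Izumo1, read 1769, 2445 and 1857 on the MI arrays and 479, 729.6 and 504 on the MII arrays (log2 change -1.81, SE 0.25, adjusted p = 0.00526), and was already lower on every MI array than on every GV array (4210.3, 5155 and 5580.1). Nsf, the ATPase that recycles fusion proteins of secretory granules, had 4730.3 ± 352 on the MI arrays and 1018 ± 71.4 on the MII arrays (mean and SD, n = 3; log2 change -2.20, SE 0.19, adjusted p = 0.0013; other probe set -1.05). All 3 held in every fit without 1 array.

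Few transcription factors of oocytes and early embryos were called. Of the pluripotency and early embryo transcription factor list, 2 of 32 members fell and 3 rose (median log2 change 0.31, 0.43 relative to genes of like MI signal), 6.25% and 9.38% of the list, beside 18.1% falling and 2.64% rising in genes of like signal. Figla, the factor that turns on zona genes in growing oocytes, read 784, 1341 and 1035 on the MI arrays and 15.5, 24.5 and 20.2 on the MII arrays (log2 change -4.86, SE 0.29, adjusted p = 0.000726), a fall to near background that was among the 12 largest relative to like signal. Obox3, an oocyte homeobox gene of early embryos, read 9.0, 11.2 and 2.59 on the MI arrays and 51.2, 49.4 and 41.6 on the MII arrays (log2 change 1.44, SE 0.21, adjusted p = 0.00643), still dim in MII. Both held in every fit without 1 array. Sohlh2, a partner factor of early oocyte growth, rose by 2.67 but was lost without any one of MI 1, MI 2, MII 1 and MII 2 (adjusted p between 0.0661 and 0.0927). Obox5 rose by 1.05 but was lost without any one of GV 1, GV 3, MI 1, MI 2, MI 3, MII 1, MII 2 and MII 3 (adjusted p between 0.0525 and 0.114). Nobox, which activates oocyte genes, fell by 2.13 but was lost without any one of GV 1, GV 2, GV 3, MI 1, MI 2, MI 3, MII 2 and MII 3 (adjusted p between 0.0742 and 0.14). Of the list of chromatin reprogramming after fertilisation, 3 of 30 members fell and 0 rose (median log2 change 0.05, 0.52 relative to genes of like MI signal). Of genes of like signal, 23.96% fell and 3.39% rose. Dnmt1, the maintenance DNA methyltransferase, read 9205, 8199 and 6781 on the MI arrays and 3268, 3289.6 and 3107 on the MII arrays (log2 change -1.31, SE 0.20, adjusted p = 0.00794; other probe sets -1.14 and -1.39). It lay -0.39 relative to genes of like signal and was not called with a pseudocount of 1 (adjusted p = 0.0887).

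Of the DNA replication list, 10 of 51 members fell and 5 rose (median log2 change -0.13, 0.14 relative to genes of like MI signal). Genes of like signal had 19.7% falling and 4.23% rising. Calls in both directions occurred within the same complexes. Orc6, a subunit of the complex that marks replication origins, read 672, 1029 and 486 on the MI arrays and 3520.0, 3127 and 3433 on the MII arrays (log2 change 2.24, SE 0.37, adjusted p = 0.0104). Cdc45, a core part of the replicative helicase, read 123, 139 and 86.7 on the MI arrays and 641, 788 and 1070.1 on the MII arrays (log2 change 2.67, SE 0.32, adjusted p = 0.00305), a call not made with the mean of all probe sets (adjusted p = 0.211). These rises had no overlap with GV or MI. Of the subunits around them, Orc3 fell by 3.58 (other probe sets 0.91 and 1.22; not called when probe sets were averaged, adjusted p = 0.09) and Orc5 by 1.09, the latter lost without MII 3 (adjusted p = 0.0527). The helicase subunits Mcm3 and Mcm5 fell by 1.56 and 2.37. Mcm3 was lost without either of MI 1 and MI 2 (adjusted p between 0.0635 and 0.0666). Mcm5 was lost without either of MI 1 and MI 2 (adjusted p between 0.0785 and 0.0814). Cdt1, which loads that helicase, fell by 0.81 but was lost without any one of GV 1, GV 2, GV 3, MI 1, MI 2, MII 1, MII 2 and MII 3 (adjusted p between 0.0672 and 0.132). Rpa2, of the single-strand binding complex, fell by 4.23 but was lost without any one of MI 1, MI 2 and MII 1 (adjusted p between 0.0531 and 0.067). Topbp1, a scaffold of origin firing, fell by 1.70 but was lost without any one of GV 1, GV 3, MI 1, MI 2, MI 3, MII 2 and MII 3 (adjusted p between 0.0526 and 0.111). Fen1, the flap nuclease, read 2711, 2412 and 1181 on the MI arrays and 105, 73.1 and 53.4 on the MII arrays (log2 change -4.46, SE 0.51, adjusted p = 0.00275; other probe set -3.09). Rfc2, of the clamp loader, fell by 3.44 (adjusted p = 0.00242; other probe sets -2.06 and -3.54) and Lig1, the ligase, fell by 2.93 (adjusted p = 0.00907). The calls of Orc6, Cdc45, Orc3, Fen1, Rfc2 and Lig1 held in every fit without 1 array. Mtbp, Pole2 and Orc1 also rose, by 4.22, 1.58 and 1.42. Mtbp was lost without any one of MI 2, MI 3, MII 1 and MII 3 (adjusted p between 0.0526 and 0.0689). Pole2 was lost without any one of MI 1, MI 2 and MII 3 (adjusted p between 0.0599 and 0.0854). Orc1 was lost without any one of GV 1, GV 2, MI 1, MI 2, MI 3, MII 1, MII 2 and MII 3 (adjusted p between 0.0503 and 0.121).

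Ribosomal protein and respiratory chain genes lay furthest below genes of like signal. Of 43 cytosolic ribosomal protein genes, 34 (79.1%) fell and 0 rose, against 32.02% falling among genes of like MI signal. None was higher at an unadjusted p under 0.05 by limma, a level at which 1532 of all 18193 genes were higher. The median intensity of the list was 3652, 3042 and 3799 on the GV arrays, 2788, 2784 and 3079 on the MI arrays and 362, 364 and 168 on the MII arrays. Its median log2 change of -2.92 lay -2.29 from that of genes of like signal, and 27 of the falls were called in every fit without 1 array. Rpl11, of the large subunit, read 4535, 4107 and 5578 on the MI arrays and 298, 447 and 278 on the MII arrays (log2 change -3.75, SE 0.24, adjusted p = 0.000726). Rps27, of the small subunit, read 2668, 2784 and 3086 on the MI arrays and 157, 251 and 278 on the MII arrays (log2 change -3.58, SE 0.27, adjusted p = 0.00109). Ribosomal protein genes have many near-identical pseudogenes, so a probe set may also read related sequence.

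Ribosomal protein mRNAs are known for starting with a C followed by a run of pyrimidines, the terminal oligopyrimidine tract through which mTOR controls their translation. The first bases of 3 ribosomal protein genes with such a run, and of 2 in which the search described below found none, are shown, since genes of both kinds fell. Each RefSeq window (GRCm38.p6) runs from 10 bases before the annotated start to 20 bases into the transcript, 5′ to 3′, and capitals mark the run.
Rpl38 chr11:114668570-114668599 (plus strand): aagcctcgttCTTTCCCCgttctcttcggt
Rps27 chr3:90213629-90213658 (minus strand): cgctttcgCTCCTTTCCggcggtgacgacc
Rps10 chr17:27635225-27635254 (minus strand): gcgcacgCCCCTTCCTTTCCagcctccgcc
Rpl11 chr4:136053374-136053403 (minus strand): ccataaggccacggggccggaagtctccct
Rpl10a chr17:28328461-28328490 (plus strand): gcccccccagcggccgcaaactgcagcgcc
These genes fell by 4.58, 3.58, 4.07, 3.75 and 4.35 on the log2 scale. Where a gene had several windows, the one farthest upstream was used. The search took a C followed by at least 4 C or T, on the transcribed strand, with the C within 5 bases of the annotated start. Such a run was found in 18 of 38 ribosomal protein genes with a window (47.4%), in 19.9% of 14368 genes tested and in 18.5% of all 27025 windows. Among ribosomal protein genes it was in 13 of 29 that fell (44.8%) and in 5 of 9 that did not pass (55.6%). In the 10 brightest bins of MI signal it was in 22.5% of genes that fell, 19.4% of those that rose and 19.4% of those that did not pass. A match describes letters and is no site, and annotated starts may differ from those used in oocytes. The C run visible in Rpl10a begins farther upstream than the search allowed and was not counted. A run of C and T at the end of the Rpl11 window begins farther downstream than allowed and was not counted either. These 2 genes therefore lack a run only within the searched range.

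Of 77 oxidative phosphorylation genes, 58 (75.3%) fell and 0 rose, against 29.9% falling among genes of like signal (median log2 change -3.08, -2.45 relative to genes of like MI signal). At an unadjusted p under 0.05 by limma, 2 were higher, against 1532 of all 18193 genes. The median intensity of the list was 2194, 2343 and 1281 in MI and 257, 279 and 94.5 in MII. Ndufb7, of respiratory complex I, had the smallest adjusted p of any gene named here, with 2194, 1758 and 2609 on the MI arrays and 45.6, 32.5 and 31.4 on the MII arrays (log2 change -5.38, SE 0.22, adjusted p = 0.000145; other probe set -3.05). Ndufb5, of the same complex, read 3506, 3427 and 1452 on the MI arrays and 85.9, 107 and 63.01 on the MII arrays (log2 change -4.71, SE 0.37, adjusted p = 0.00121; other probe set -5.62). Of 76 mitochondrial ribosomal protein genes, 26 fell and 1 rose, against 17.7% falling in genes of like signal (median log2 change -1.64, -1.27 relative to genes of like MI signal). Mrps18c read 889.9, 1169 and 1039.6 on the MI arrays and 64.4, 33.4 and 22.9 on the MII arrays (log2 change -4.28, SE 0.28, adjusted p = 0.000786). The gene that rose was Mrpl3, which read 413, 313 and 397 on the MI arrays and 1859.8, 1776 and 1933 on the MII arrays (log2 change 2.27, SE 0.23, adjusted p = 0.00174; other probe sets 3.66 and 0.63).

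Of 47 proteasome genes, 16 fell and 0 rose, against 22.4% falling in genes of like signal (median log2 change -1.27, -0.93 relative to genes of like MI signal). Psma3, of the catalytic core, read 1532, 1549 and 1231 on the MI arrays and 248, 232 and 155 on the MII arrays (log2 change -2.69, SE 0.24, adjusted p = 0.00138). The translation initiation and elongation factors lay nearer to their bins: 16 of 58 fell and none rose, against 21.2% (median log2 change -0.84, -0.19 relative to genes of like MI signal). At an unadjusted p under 0.05 by limma, 5 were higher, against 1532 of all 18193 genes. Eif1b, a start-codon selection factor, read 4918, 5018 and 4519 on the MI arrays and 404, 444 and 304 on the MII arrays (log2 change -3.61, SE 0.23, adjusted p = 0.000726).

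Across 47 lists, the medians relative to genes of like signal ran from -2.45 for oxidative phosphorylation to 0.99 for cohesin, separase and shugoshin, with 0 for all genes by construction. Other large families were called at differing shares. Of 40 chromatin remodellers, 1 rose and 0 fell, while genes of like signal had 12.3% falling and 3.67% rising. At an unadjusted p under 0.05 by limma, 4 were higher and 3 lower, against 1532 and 2368 of all 18193 genes. Of 305 numbered zinc finger proteins, 12 rose and 7 fell, against 2.60% rising and 4.08% falling in genes of like signal. Of 51 DEAD-box and DEAH-box helicases, which unwind RNA, 5 rose and 10 fell (19.6%), against 9.67% falling and 3.97% rising at like signal. Of 80 heat-shock and chaperonin genes 1 rose and 16 fell (20%), against 14.7% falling and 2.94% rising. Among the last, Cct3 of the ring that folds actin and tubulin read 8305, 6782 and 3356 on the MI arrays and 159, 418 and 177 on the MII arrays (log2 change -4.56, SE 0.44, adjusted p = 0.00163). Further probe sets of Cct3 were at -4.30, -2.55, -2.70, -2.18 and -3.66. Members of a list share function and are no independent replicates of a condition, and no list was tested as a set.

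**Figure D4:**
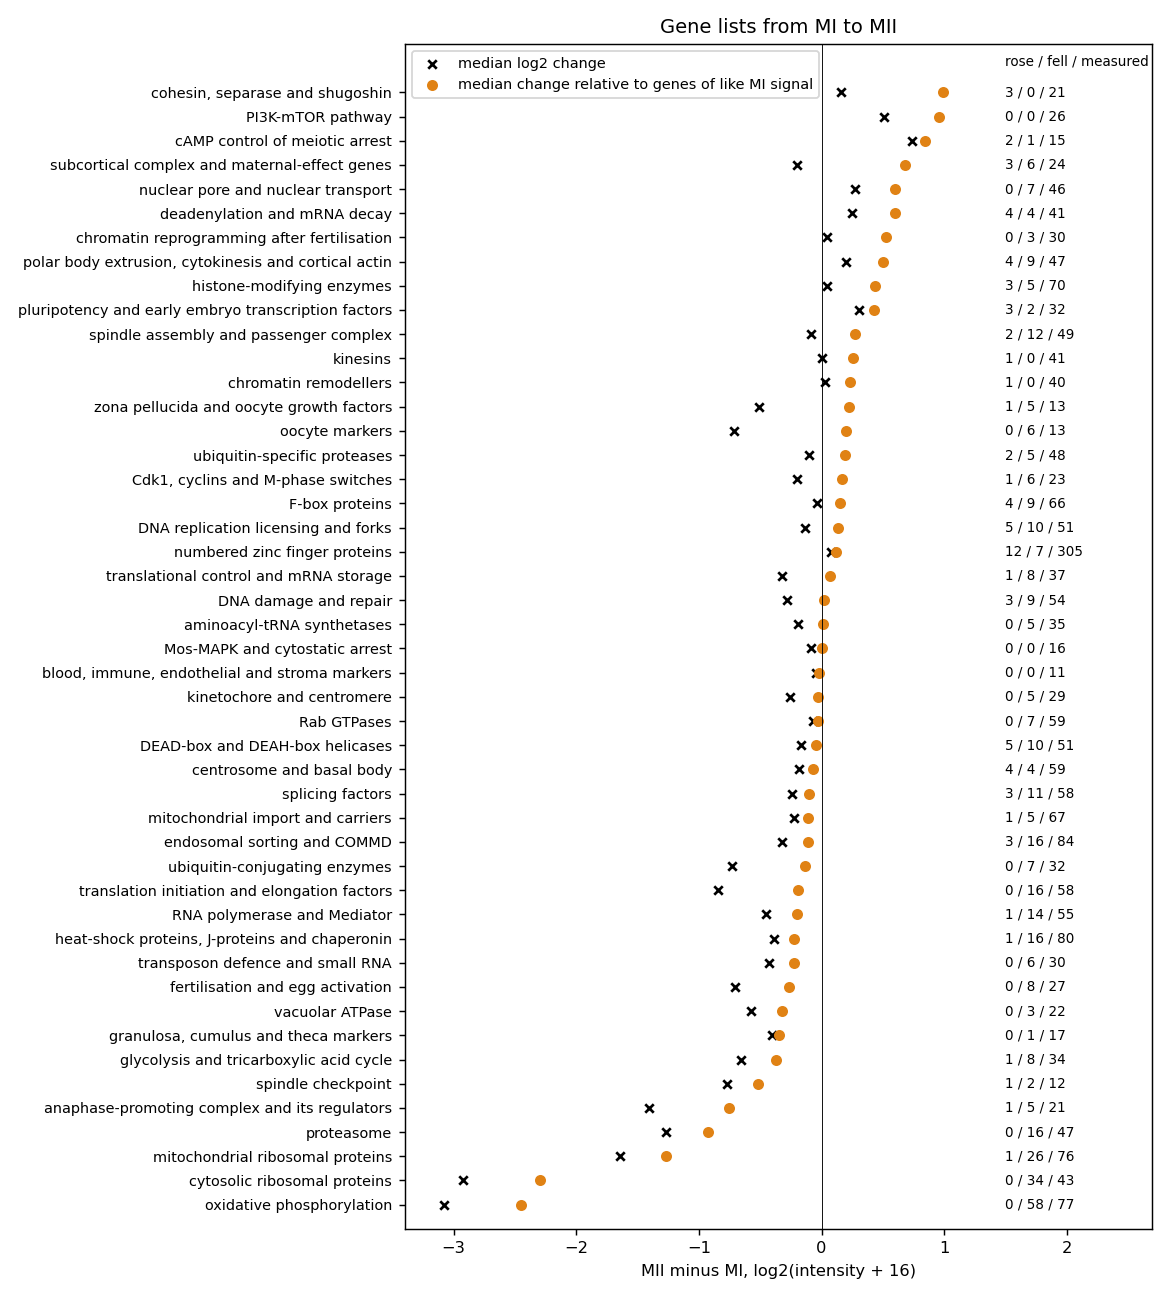
Median log2 change from MI to MII (crosses) and median change relative to genes of like MI signal (orange circles) of each gene list, on the log2(intensity + 16) scale, ordered by the circles; numbers at the right count members that rose, fell and were measured. Oxidative phosphorylation (-2.45) and cytosolic ribosomal proteins (-2.29) lie farthest left and cohesin, separase and shugoshin (0.99) farthest right.

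Genes that fell had a shorter span on the chromosome than genes that rose. The RefSeq table gave a genomic span, introns included, for 16465 of the 18193 genes as protein-coding genes. In the 10 brightest bins of MI signal, the median span was 15.3 kb for genes that fell, 36.5 kb for genes that rose and 27.7 kb for those that did not pass. These genes were then split by span into 5 groups of equal number. In the group with the shortest spans 23.4% fell, followed by 15.9%, 12.8%, 10.4% and 6.0% in the group with the longest. The share that rose was 2.21% in the first and 5.32% in the last, and the median MI intensity lay between 244 and 299 in all 5. Among the brightest 10% of genes, falls numbered 191, 146, 115, 87 and 54 of 360 genes from the shortest to the longest spans. The share that rose in this set did not climb with span, at 3.06% in the shortest group and 1.39% in the longest. There the median MI intensity also declined, from 2282 to 1511. Without the members of the ribosomal, mitochondrial ribosomal, oxidative phosphorylation and proteasome lists, the median span was 16.9 kb for genes that fell and 28.2 kb for those that did not pass. In the 8 brightest bins taken one by one, the genes that fell had a shorter median span than those that did not pass in each, from 10.5 kb against 21.7 kb in the top bin to 14.9 kb against 27.0 kb in bin 13. Genes that rose had a longer median span than those that did not pass in bins 13 to 18 but a shorter one in bins 19 and 20. It was 23.3 kb against 30.4 kb in bin 19 and 17.0 kb against 21.7 kb in bin 20.

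**Figure D5:**
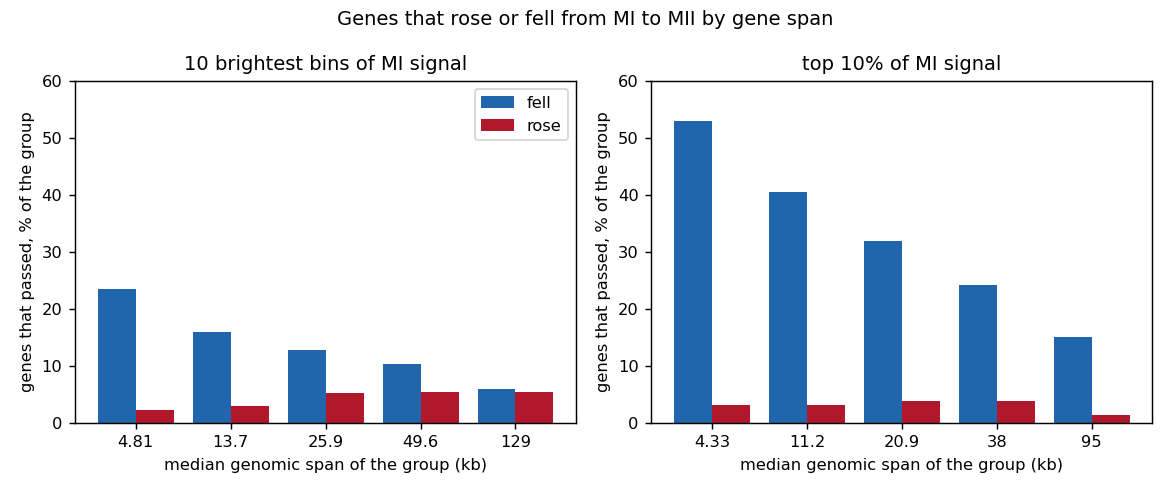
Percentage of genes that fell (blue) or rose (red) in 5 equal groups of genes ordered by genomic span, for the 10 brightest bins (left) and the top 10% (right) of MI signal; labels on the x axis are the median span of a group in kb. Falls decline from 23.4% to 6.0% on the left and from 191 to 54 of 360 genes on the right.

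Among all genes, in the lists or not, the largest rises relative to genes of like signal went from low MI signal to clear signal. Poglut2, a glucosyltransferase of the endoplasmic reticulum, read 42.3, 20.1 and 64.7 on the MI arrays and 4009.7, 1300.2 and 1109.6 on the MII arrays (5.16 relative to like signal). Efcab7, a ciliary signalling adaptor, read 85.98, 12.8 and 9.47 on the MI arrays and 716, 673 and 861 on the MII arrays (4.17 relative to like signal). Pdlim5, a cytoskeletal adaptor, read 105, 42.1 and 12.1 on the MI arrays and 447, 778 and 1309 on the MII arrays (3.89 relative to like signal). These and Stag1 were the 4 of the 12 largest rises that were called in every fit without 1 array. Of the other 8, Mtbp and Prkci are given above. Fbxo15, which encodes an F-box protein of pluripotent cells, was lost without any one of MI 2, MI 3, MII 1 and MII 3 (adjusted p between 0.0613 and 0.0765). Trpc4, a cation channel, was lost without any one of GV 1, MI 1, MI 2, MI 3 and MII 2 (adjusted p between 0.0521 and 0.0932). Lamp2, a lysosomal membrane protein, was lost without any one of GV 1, GV 3, MI 2, MI 3, MII 1, MII 2 and MII 3 (adjusted p between 0.0523 and 0.131). Mettl17, which helps to build the mitochondrial ribosome, was lost without any one of GV 2, MI 1, MI 2, MII 1, MII 2 and MII 3 (adjusted p between 0.0551 and 0.106). Dtwd2, a tRNA-modifying enzyme, was lost without any one of MI 2, MII 2 and MII 3 (adjusted p between 0.0534 and 0.0703). The zinc finger gene Zfp423 was lost without either of MI 2 and MII 3 (adjusted p between 0.0513 and 0.0646).

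The largest falls relative to genes of like signal were steadier. Of 12, 8 were called in every fit without 1 array: Cdk1, Spc24, Ndufb7, Figla, Mrps28, Commd9, Ccdc28b and Ccnd2. Commd9, of endosomal sorting, read 1447, 1464 and 1292 on the MI arrays and 57.4, 5.51 and 10.4 on the MII arrays (log2 change -5.35, SE 0.45, adjusted p = 0.0013; other probe sets -2.49 and -4.20). Ccdc28b, a ciliary protein, read 1317, 693 and 681 on the MI arrays and 3.72, 7.17 and 8.15 on the MII arrays (log2 change -5.29, SE 0.62, adjusted p = 0.00305; other probe set -3.20). Ccnd2, cyclin D2, read 352, 330.5 and 1611 on the MI arrays and 5.27, 10.2 and 3.49 on the MII arrays (log2 change -4.74, SE 0.57, adjusted p = 0.00324), where its brightest probe set fell to background, its other probe sets were at -2.40, -0.73, -1.91, -3.09 and -1.10 and the mean over all was not called (adjusted p = 0.0755). The falls of Mien1, Fuca1 and Snapc5 were lost without MI 2 (adjusted p = 0.0514, 0.0503 and 0.0515), and that of Sgsm1 without any one of MI 1, MI 2, MII 2 and MII 3 (adjusted p between 0.0527 and 0.064).

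Some of the brightest genes had little measured change while the median of their bin was lower in MII. Among the top 5% of MI signal, the 6 genes with the smallest change and a small error were Pttg1, Usp46, Bbip1, Pcgf1, Rbm38 and Ube2d3. Ube2d3, a ubiquitin-conjugating enzyme, read 5187, 6934 and 7792 on the MI arrays and 6453, 6908 and 6765 on the MII arrays (95% interval -0.48 to 0.55). Pcgf1, a subunit of a Polycomb complex, read 3594, 3805 and 3067 on the MI arrays and 3261, 3629.7 and 3393 on the MII arrays (95% interval -0.46 to 0.42). Usp46, a deubiquitinase, had an interval of -0.62 to 0.60, and Rbm38, an RNA-binding protein, one of -0.67 to 0.62. Bbip1, of the ciliary BBSome, had one of -0.53 to 0.50, although its other probe set was at -1.17. Each lay 0.89 to 0.95 above the median of its bin, which follows from choosing genes near 0 in a bin with a median of -0.91. The intervals leave room for changes of up to 0.67 on the log2 scale in the direction of a fall.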

How the data were processed

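Polysome-bound mRNA was measured on 9 arrays, 3 per stage, and 6 of them (MI and MII) form the contrast. The values are probe set intensities on a linear scale as the authors deposited them in a single table. How probes were summarised, corrected for background and scaled between arrays is not given in the sources used here. Per the labels' protocols, the RNA was cleaned on columns, copied to cDNA, linearly amplified and labelled with biotin. Of 45101 probe sets, 64 controls were left out. The platform annotation gave 34945 of the rest 1 gene symbol, 932 several and 9160 none, and only the first were used. The probe set with the highest mean log2 value over the arrays stood for each of 18193 genes (9010 had more than 1). A RefSeq table of GRCm38.p6 held 18032 of the genes. All 9 columns of values were used.

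Values were taken as log2(intensity + 16), which understates the change of dim genes, with no filter. A model of 3 stage means over 9 arrays was fitted in R 4.3.3 with limma 3.58.1 (lmFit, eBayes), and MII minus MI was tested two-sided. A gene rose or fell if its p, adjusted over all genes by Benjamini-Hochberg, was under 0.05. The script was tested on simulated data. Every adjusted p in the text is from this limma fit or its stated alternative, SE is that of the fit, intervals are 95% intervals of the fit, and ± gives the SD of 3 intensities. Other probe sets of a gene are given where their mean reaches 37.5, the median over genes. Genes of like signal share 1 of 20 bins by MI signal.

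Named genes are a panel of 17 (16 measured; the other was not analysed here), the 12 largest rises and falls relative to like signal, up to 3 called members per list by p, and 6 bright genes with the smallest change. For rises and falls, all arrays of both stages had to separate, the higher mean had to reach 100, other probe sets had to have the same sign, and predicted genes were skipped. Further genes, such as Mastl, Arpp19, Tacc3, Birc5, Pfn1, Tle6 and Orc6, were chosen after their values were seen. The comparison, the panel and the lists were chosen with earlier results of these data known. Gene span replaced protein length, for which no protein table was used here. Alternatives were other scalings, pseudocounts of 1 and 64, a filter, other probe set rules, the 6 arrays alone, a replicate block, other bins and each array left out in turn. Labels give no batch, slide or scan date.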

Additional observations from a re-analysis of the deposited data

How the results depend on the processing

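Limits: 3 arrays per stage, no detection calls, unknown probe summary and scaling, and a compressed scale at low signal. Rises numbered 462, against 695 over every probe set, 185 with pseudocount 1, 827 when quantile normalized and 782 when arrays shared a 95th percentile. They ranged from 187 to 438 in the fits without 1 array, and falls, 1233 with all arrays, from 640 to 1197. The share of the top 5% of MI signal that fell ranged from 24.3% to 38.9% in those fits, against 40.5%. With all probe sets averaged, the changes of Idh3a and Aars, which fell at their brightest probe set, were 0.52 and 0.091. Sign changes were counted only for lists whose median was larger than the SD of the list's signal between arrays of a stage. The medians that changed sign lay close to 0. They were 0.0019 for the Cdk1 list when arrays shared a 95th percentile, 0.015 for translational control when probe sets were averaged, and 0.038 and 0.0033 for the subcortical complex list when quantile normalized and when arrays shared a 95th percentile. Relative to like signal, spindle assembly ranged from -0.046 (without MII 2) to 0.30 without 1 array, and the oocyte markers from -0.0023 (without MII 1) to 0.31, with -0.0078 in 10 bins. Over the named genes and alternatives, 2779 values stayed on the same side of the threshold, 193 lost the call and 5 gained one. A further 2 changed sign with a call in either fit. Sign changes of genes called in neither fit were not counted apart.

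Replicate numbers were not taken to pair the arrays, since not every same-numbered pair's deviations from the stage means correlated above 0.1. The correlations were 0.14, 0.0092 and 0.09 between MI and MII, 0.18, 0.0091 and 0.21 between GV and MI, and 0.11, 0.03 and 0.11 between GV and MII. All 9 were positive, and arrays of different number ranged from -0.23 to 0.11. MI 2 correlated better with MII 1 (0.07) than with MII 2. With the replicate number as a block, 471 genes rose and 1220 fell, of which 355 and 1077 were called the same way without the block. Alternatives for protein length were not run. For gene span in its place, chosen after seeing the data, genes that fell had medians of 14.1 to 16.1 kb and genes that rose 34.7 to 42.6 kb in the fits without 1 MI or MII array.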

Other observations

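Other gene groups had members that lay outside the division and egg lists. Of 66 F-box protein genes, 9 fell and 4 rose, beside 14.7% falling and 3.28% rising among genes of like signal. Among the falls were Fbxw13 (-4.78), Fbxw21 (-2.90), Fbxw16 (-2.10), Fbxw27 (-1.67) and Fbxw18 (-1.51), relatives in an oocyte family whose probe sets may share sequence, and these 5 were called in every fit without 1 array. Fbxw13 read 2771, 5013 and 2991 on the MI arrays and 122, 89.5 and 125 on the MII arrays (log2 change -4.78, SE 0.33, adjusted p = 0.000786). Of 55 genes of RNA polymerases and Mediator, 14 fell and 1 rose, beside 16.8% falling among genes of like signal. Polr2e and Polr2i, small subunits of RNA polymerases, fell by 3.97 and 4.11 (adjusted p = 0.00665 and 0.00688), and Med15, of the Mediator tail, rose by 2.63 (adjusted p = 0.00558). Of 30 genes of transposon defence and small RNA, 6 fell and limma called no rise, beside 13.7% falling and 3.31% rising at like signal. At an unadjusted p under 0.05, 1 was higher, against 1532 of all 18193 genes. Drosha, the nuclease that starts miRNA processing, read 2141, 2139 and 1891 on the MI arrays and 516, 339.9 and 238 on the MII arrays (log2 change -2.51, SE 0.34, adjusted p = 0.00499; other probe sets -1.95 and 1.53), and Tdrd9, a piRNA helicase, read 562, 327 and 233 on the MI arrays and 86.8, 12.3 and 34.6 on the MII arrays (log2 change -2.80, SE 0.49, adjusted p = 0.0123). Of 22 subunits of the vacuolar ATPase, 3 fell, Atp6v1d by 3.62, Atp6v1e1 by 4.59 and Atp6v1g1 by 3.37, all called in every fit without 1 array. This share of falls (13.6%) was not above that of genes of like signal (17.6%).

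Some genes had probe sets that changed in opposite directions. With every probe set tested on its own, 318 genes had at least 2 called probe sets, and 10 of them had 1 that rose and 1 that fell: Bcl7c, Dnajb6, Dusp12, Ercc6l2, Hbs1l, Heatr1, Hnrnpk, Nup188, Orc3 and Ywhaz. They were singled out after their values were seen. Ywhaz, a 14-3-3 adaptor protein, fell at its brighter probe set (6306 ± 748 to 1276 ± 70.8; log2 change -2.29, adjusted p = 0.00133) and rose at a dimmer one (342 ± 124 to 1741 ± 213; 2.34, adjusted p = 0.00636). Hnrnpk, an RNA-binding protein, had 2796 ± 265 to 348 ± 110.1 (-2.99) and 1819 ± 449.7 to 4052 ± 381 (1.18), with both probe sets bright in MI. Dnajb6, a co-chaperone, had 4704 ± 163 to 689 ± 335 (-2.84) and 514 ± 133 to 1134 ± 139 (1.15). All ± are SD with n = 3, and for such genes the direction depends on the probe set.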
